A study of Mus musculus with 144 samples.

Results

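The nuclear genes for subunits of the 5 complexes of oxidative phosphorylation were followed in mouse liver that lacked REV-ERBα and REV-ERBβ in its hepatocytes, under normal and shifted feeding. A gene was taken when its symbol began with Ndufa, Ndufb, Ndufc, Ndufs or Ndufv, with Uqcr, with Cox4 to Cox8 followed by a, b or c, or with Atp5, or was Sdha, Sdhb, Sdhc or Sdhd. Of 90 matching symbols, 7 assembly factors were removed, which left 83 of the 24421 genes in the tables. They comprise 36 genes of complex I, 4 of complex II, 8 of complex III, 18 of complex IV and 15 of complex V. Ndufa4 and Ndufa4l2 were counted with complex IV, to which their proteins are now assigned. Atp5s and Atp5sl match the pattern but are named Dmac2l and Dmac2 in RefSeq and were counted in no complex. Cox4i1, Cox4i2, Cyc1, Atpif1, Usmg5 and 2010107E04Rik are subunit or regulator genes that the pattern misses, and they are given separately.

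Oxidative phosphorylation couples the oxidation of NADH and succinate to ATP synthesis in the inner mitochondrial membrane. Complex I (NADH dehydrogenase) and complex II (succinate dehydrogenase) pass electrons to ubiquinone, complex III (the cytochrome bc1 complex) passes them to cytochrome c, and complex IV (cytochrome c oxidase) passes them to oxygen, while complex V (ATP synthase) uses the proton gradient to make ATP. Complex II has no subunit from mitochondrial DNA, unlike the other complexes. Hepatocytes are rich in mitochondria, and REV-ERB nuclear receptors repress transcription within the circadian clock.

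The mice were C57BL/6J males fed normal chow, either labelled WT and used as controls or labelled REV-ERB a/b double knockout, a loss that the series places in adult hepatocytes. Liver was collected either with food freely available (ad libitum) or under reverse-phase feeding, here called the reversed schedule, at ZT (zeitgeber time, counted in hours from lights on) 1, 4, 7, 10, 13, 16, 19 and 22. Isolated endothelial cells and Kupffer cells, which are liver macrophages, come from ZT 4, 10, 16 and 22, with no feeding schedule in their labels. Every group had 3 libraries, so a genotype had 24 libraries per liver schedule and 12 per cell type. Column names mark controls as GFP and knockouts as CRE, so the agent the mice received changes together with genotype and cannot be told apart from it. The labels give no ages. They also leave unsaid whether libraries stem from separate animals, and p-values then reflect only spread among libraries, which may be technical.

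Libraries had 4.57e6 to 10.4e6 counts under ad libitum feeding and 13.1e6 to 26.2e6 on the reversed schedule. The depth of the endothelial and Kupffer tables is unknown, because they were deposited after quantile normalisation. Transcripts of the targeted genes were not lower in knockout liver: Nr1d1 ranged from 1.37 to 169 normalised CPM in ad libitum controls and from 19.1 to 175 in knockouts. Its daily mean of log2 expression was 1.76 ± 0.15 (SE) higher ad libitum and 1.83 ± 0.15 higher on the reversed schedule, and that of Nr1d2 was 1.11 ± 0.10 and 0.80 ± 0.08 higher. The labels do not name the deleted exons, so whole-transcript counts do not check the deletion. Summed markers of the labelled cell type were at 52174 signal units or more in every endothelial library and at 129922 or more in every Kupffer library, with hepatocyte markers from 6078 to 122376 in those same tables. Some libraries stand apart. Ad libitum they are the second control libraries of ZT 16 and of ZT 22. Among endothelial libraries they are knockout replicates 2 and 3 of ZT 22, and among Kupffer libraries replicates 2 and 3 of ZT 4, control and knockout alike.

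Promoters of 5 members around which the results turn are shown first, as the 250 bases before the annotated start on RefSeq's GRCm38.p6, 5′ to 3′ along the gene. Sdha and Sdhb encode the catalytic and iron-sulfur subunits of complex II and were among the members with the largest rise in knockout liver. Ndufv1, the NADH-binding subunit of complex I, rose in both schedules. Cox7a1, the heart and muscle form of a small complex IV subunit, was the member that fell in both schedules. Atp5sl had the smallest p for a rhythm that differed between feeding schedules. Capitals mark matches on either strand to the palindromic site of the respiratory gene activator NRF1 with 1 open base, CACGTG (the E-box of clock activators) or AGGTCA (the hexamer bound by REV-ERB and other nuclear receptors).
Sdhb (chr4:140961021-140961270, plus strand): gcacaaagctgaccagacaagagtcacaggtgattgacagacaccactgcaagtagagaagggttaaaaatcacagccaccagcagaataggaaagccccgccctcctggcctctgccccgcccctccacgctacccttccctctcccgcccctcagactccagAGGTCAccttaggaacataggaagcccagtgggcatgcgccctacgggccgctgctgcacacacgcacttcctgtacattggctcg
Sdha (chr13:74350241-74350490, minus strand): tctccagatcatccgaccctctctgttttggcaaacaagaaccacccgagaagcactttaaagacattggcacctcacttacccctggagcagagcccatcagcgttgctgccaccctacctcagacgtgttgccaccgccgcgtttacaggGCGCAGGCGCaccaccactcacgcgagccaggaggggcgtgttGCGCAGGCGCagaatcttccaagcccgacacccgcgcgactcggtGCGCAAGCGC
Ndufv1 (chr19:4012756-4013005, minus strand): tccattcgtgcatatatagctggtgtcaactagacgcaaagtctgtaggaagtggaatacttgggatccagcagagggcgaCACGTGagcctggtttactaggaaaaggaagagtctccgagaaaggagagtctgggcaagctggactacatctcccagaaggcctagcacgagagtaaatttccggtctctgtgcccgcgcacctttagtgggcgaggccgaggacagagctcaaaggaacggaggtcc
Cox7a1 (chr7:30183921-30184170, plus strand): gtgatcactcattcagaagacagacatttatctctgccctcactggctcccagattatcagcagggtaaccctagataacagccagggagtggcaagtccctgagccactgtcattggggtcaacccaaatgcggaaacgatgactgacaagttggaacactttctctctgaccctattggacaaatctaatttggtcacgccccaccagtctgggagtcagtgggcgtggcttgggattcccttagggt
Atp5sl (chr7:25619164-25619413, plus strand): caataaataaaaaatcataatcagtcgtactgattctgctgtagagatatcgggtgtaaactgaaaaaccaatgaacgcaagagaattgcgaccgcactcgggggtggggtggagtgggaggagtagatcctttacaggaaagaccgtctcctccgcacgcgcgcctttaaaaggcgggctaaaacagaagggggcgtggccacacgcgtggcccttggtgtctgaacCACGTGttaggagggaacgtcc

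A RefSeq promoter was at hand for 70 of the 83 members. The NRF1 site with 1 open base occurred in 12 of them (17.1%) and in 3.86% of all 27025 promoters of the same length, and the strict NRF1 site, whose matches are among these, in 4 (5.71%) and 0.781%. CCGGAAG, a site of ETS factors such as GABP, occurred in 11 (15.7%) against 7.05%. CACGTG occurred in 7 of the 70 against 6.05%, AGGTCA in 11 (15.7%) against 13.8%, and CCAAT in 31 (44.3%) against 34.5%. The D-box TTATGTAA occurred in 1 (1.43%) against 0.862%, and the YY1 site in 0 against 0.289%. These are matches of letters on both strands and were not tested against the expression data.

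Levels of the members were compared per kilobase of transcript, in ad libitum control liver. Atp5b, the catalytic β subunit of ATP synthase, was the highest of all members with 730 normalised CPM per kilobase. The highest of complex IV was Ndufa4 with 476, of complex III Uqcrq with 428, of complex I Ndufb9 with 291, and of complex II Sdhb with 191 CPM per kilobase. The lowest tested members were Ndufa4l2 with 2.30 in complex IV, Atp5l with 7.46 in complex V, Ndufb4 with 8.51 in complex I, Sdhc with 129 in complex II and Uqcrc2 with 144 in complex III. Complex I had the lowest median level, 79.7 CPM per kilobase, against 167 in complex II, 194 in complex III, 182 in complex IV and 158 in complex V. Some low values are uncertain, because reads of these genes can fall on near-identical copies elsewhere. Of 50-base windows of the GENCODE M21 transcript, 68.5% for Atp5l, 37.0% for Ndufb4, 87.4% for Atp5g2, 66.0% for Atp5g1, 53.8% for Ndufa12, 53.0% for Cox7c, 50.5% for Atp5h, 43.2% for Uqcrb and 41.2% for Ndufs5 also occurred in another gene's transcripts. The ranks of Uqcrq and Sdhc also depend on their listed lengths of 495 and 1171 bases. Their GENCODE transcripts held 1472 and 3122 such windows and are thus longer.

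Knockout liver held more RNA for the respiratory chain under ad libitum feeding. The summed level of all 83 members was 10615 ± 804 CPM after TMM scaling (called normalised CPM; SD, n = 24) in the control group. Knockouts had 11781 ± 733, a ratio of 1.11. Complex II had the largest ratio, 1.16 (1039 ± 51.7 against 1202 ± 51.9), followed by 1.13 for complex V, and ratios down to 1.08 in complex IV for the others. Of 77 members that passed the filter on low counts, 39 rose and 1 fell (edgeR quasi-likelihood test, adjusted p below 0.05 over all genes), where 13.7% of all genes tested rose and 13.5% fell. The median difference of the members was 0.12 on the log2 scale, against -0.004 over all genes tested.

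The rise covered every complex in part. All 4 members of complex II rose, 16 of 36 of complex I, 5 of 8 of complex III, 6 of 13 tested of complex IV and 8 of 14 tested of complex V. Neither Atp5s nor Atp5sl rose ad libitum. On the reversed schedule 27 of 79 tested members rose and 2 fell, where 12.7% of all genes tested rose and 14.2% fell, with a member median of 0.10 against -0.006. The rises were 12 of 36 in complex I, 3 of 4 in complex II, 3 of 8 in complex III, 3 of 14 in complex IV and 5 of 15 in complex V, and Atp5sl rose too. Whether the complexes differ from each other was not tested.

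**Figure D1:**
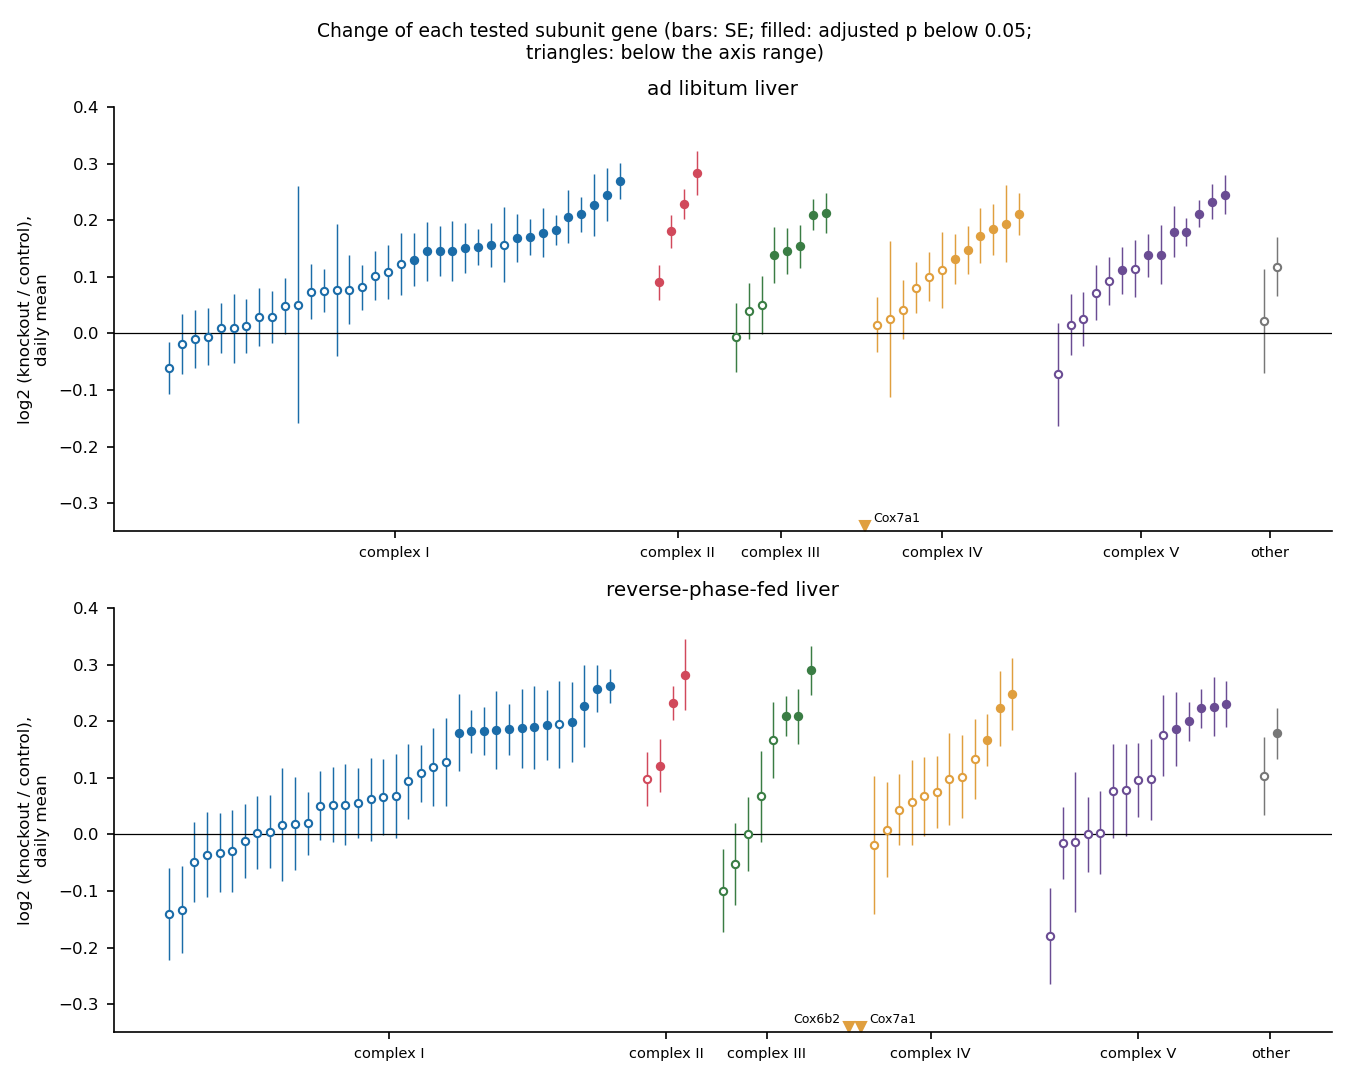
Log2 difference of the daily mean between knockout and control for each tested member, ordered within its complex, with SE bars, in ad libitum (top) and reverse-phase-fed (bottom) liver; filled points passed an adjusted p of 0.05. Most points lie above 0 in both panels, while Cox7a1 (both panels) and Cox6b2 (bottom) lie below the axis range and are drawn as triangles at its edge.

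In complex II the rise could be seen in single libraries. Sdhb (mm9 chromosome 4, 140517186 to 140535107) had a lowest, median and highest level of 174, 199 and 283 normalised CPM in ad libitum controls and 208, 249 and 289 in knockouts. At 7 of 8 times all 3 knockout libraries were above all 3 controls, ZT 16 being the exception, where 1 control library reached 283. Its daily mean rose by 0.28 ± 0.04 on the log2 scale (SE, edgeR adjusted p = 7.17e-08) and by 0.28 ± 0.06 on the reversed schedule (edgeR adjusted p = 0.000431). Sdha, the flavoprotein that oxidises succinate, had 432, 473 and 545 normalised CPM in ad libitum controls and 497, 547 and 588 in knockouts, with no overlap at 7 of 8 times. It rose by 0.23 ± 0.03 in both schedules (edgeR adjusted p = 9.95e-10 and 1.49e-08). The membrane anchors changed less: Sdhd rose by 0.18 ± 0.03 and 0.12 ± 0.05, and Sdhc rose by 0.09 ± 0.03 ad libitum and differed by 0.10 ± 0.05 on the reversed schedule, where it did not pass the test (edgeR adjusted p = 0.131).

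In complex I the member with the largest rise ad libitum was Ndufs1, the largest iron-sulfur subunit. Its levels were 89.9, 109 and 130 normalised CPM (lowest, median, highest) in ad libitum controls and 106, 130 and 153 in knockouts. On the reversed schedule they were 110, 137 and 151 in controls and 143, 163 and 181 in knockouts, and 21 of 24 knockout libraries exceeded every control library. The rise was 0.27 ± 0.03 and 0.26 ± 0.03 (edgeR adjusted p = 1.24e-09 and 7.6e-10). Ndufv1 rose by 0.21 ± 0.03 and 0.26 ± 0.04, with 122, 145 and 173 normalised CPM in ad libitum controls and 149, 167 and 195 in knockouts. Among the accessory subunits, Ndufc2 rose by 0.25 ± 0.05 and 0.18 ± 0.07, Ndufb3 by 0.23 ± 0.05 and 0.20 ± 0.07, and Ndufb9 by 0.17 ± 0.04 and 0.23 ± 0.07, ad libitum and on the reversed schedule. Ndufa3, one of the shortest accessory subunits, had 64.1, 77.0 and 109 normalised CPM in ad libitum controls and 66.1, 78.9 and 98.6 in knockouts, and its difference of 0.01 ± 0.05 did not pass the test.

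In complex III the core proteins Uqcrc1 and Uqcrc2 and the Rieske iron-sulfur protein Uqcrfs1 rose in both schedules. Uqcrc1 had 221, 261 and 338 normalised CPM in ad libitum controls and 261, 304 and 353 in knockouts, and 263, 320 and 375 against 315, 395 and 468 on the reversed schedule. The genotypes overlapped as a whole, but at 5 of 8 times in each schedule every knockout library was above every control. Its rise was 0.21 ± 0.03 ad libitum (edgeR adjusted p = 3.39e-06) and 0.29 ± 0.04 on the reversed schedule (edgeR adjusted p = 6.51e-07). Uqcrc2 rose by 0.21 ± 0.03 and 0.21 ± 0.04, and Uqcrfs1 by 0.15 ± 0.04 and 0.21 ± 0.05. The small subunits Uqcrq and Uqcr10 differed by -0.01 ± 0.06 and 0.04 ± 0.05 ad libitum and by -0.10 ± 0.07 and -0.05 ± 0.07 on the reversed schedule, none of which passed the test.

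In complex V the α, β and γ subunits of the catalytic part rose in both schedules, and the δ and ε subunits did not pass the test. Atp5b (mm9 chromosome 10, 127520363 to 127527444) had 1237, 1365 and 1477 normalised CPM in ad libitum controls and 1431, 1575 and 1765 in knockouts. All 3 knockout libraries were above all 3 controls at 8 of 8 times ad libitum and at 5 of 8 on the reversed schedule. Atp5b rose by 0.21 ± 0.02 and 0.22 ± 0.03 (edgeR adjusted p = 3.81e-10 and 9.06e-07), Atp5a1, the α subunit, by 0.18 ± 0.02 and 0.20 ± 0.03, and Atp5c1, the γ subunit of the central stalk, by 0.24 ± 0.03 and 0.23 ± 0.04. Atp5f1 of the peripheral stalk rose by 0.23 ± 0.03 and 0.23 ± 0.05. Atp5d, the δ subunit, differed by 0.07 ± 0.05 and 0.10 ± 0.07, Atp5e, the small ε subunit, by 0.02 ± 0.05 and 0.00 ± 0.07, and Atp5l, a membrane subunit, by -0.07 ± 0.09 and -0.18 ± 0.08, which did not pass the test.

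Complex IV held both rises and the falls. Cox7a2l is known from work on the joining of complexes III and IV, which was not examined in these mice. It had 58.7, 83.8 and 95.5 normalised CPM in ad libitum controls and 76.1, 93.3 and 112 in knockouts. It rose by 0.21 ± 0.04 and 0.17 ± 0.05 (edgeR adjusted p = 1.44e-05 and 0.00479). Cox7c, a small structural subunit whose reads can fall on copies elsewhere, rose by 0.19 ± 0.07 and 0.25 ± 0.06. Cox8a and Ndufa4 differed by 0.02 ± 0.05 and 0.10 ± 0.04 ad libitum and by 0.07 ± 0.07 and 0.04 ± 0.06 on the reversed schedule, and neither passed the test.

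Cox7a1 (mm9 chromosome 7, 30969190 to 30971049) fell in knockout liver from an already low level. It had 0.15, 0.75 and 1.80 normalised CPM in ad libitum controls and 0.00, 0.24 and 0.79 in knockouts. On the reversed schedule it had 0.40, 1.33 and 2.39 in controls and 0.18, 0.77 and 1.51 in knockouts. The mean was lower in knockouts at 8 of 8 times in each schedule, with the 3 knockout libraries below all 3 controls at 2 times ad libitum and 3 on the reversed schedule, so the genotypes overlapped at most times. The counts behind these values were 130.5 in 24 control and 59 in 24 knockout libraries ad libitum, and 603.5 and 365 on the reversed schedule. The daily mean fell by 1.38 ± 0.26 on the log2 scale ad libitum (edgeR adjusted p = 4.11e-05) and by 0.78 ± 0.16 on the reversed schedule (edgeR adjusted p = 0.000107). A filter on a mean of at least 1 CPM removed Cox7a1 from the ad libitum test.

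The other tissue-restricted forms of complex IV subunits were close to absent. Cox6b2, the testis form of Cox6b, had 126 counts in 24 control and 34.5 in 24 knockout libraries on the reversed schedule, or 0.00, 0.25 and 0.73 normalised CPM against 0.00, 0.08 and 0.20. It fell by 1.84 ± 0.35 there (edgeR adjusted p = 4.72e-05) and was removed by the filter ad libitum, where it had 29.5 and 11 counts. Cox7b2 and Cox8c had 0 counts in every liver library, which allows at most 3 counts of each group's total, or 0.0189 CPM in ad libitum controls. Cox6a2, the muscle form of Cox6a, had 5 and 2 counts ad libitum and 8.5 and 11 on the reversed schedule. Cox8b, the muscle form of Cox8, had 9 and 3 counts ad libitum and 17 and 17 on the reversed schedule. Ndufa4l2, known for its induction under low oxygen, had a median of 2.34 normalised CPM in ad libitum controls and 2.13 in knockouts.

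Comparing schedules, 23 members rose in both, which is 59.0% of those that rose ad libitum and 85.2% of those that rose on the reversed schedule. Over all genes tested 1099 rose in both, 64.0% and 62.7% of the genes that rose in each. They include Ndufs1, Ndufs3 and Ndufv1 of the core of complex I, Sdha, Sdhb and Sdhd, Uqcrc1, Uqcrc2 and Uqcrfs1, and Atp5a1, Atp5b, Atp5c1, Atp5f1 and Atp5o. When both schedules were fitted together, the genotype effect differed between schedules for 0 of 78 members (edgeR, adjusted p below 0.05), where 0.207% of all genes differed. Only 1 member had an unadjusted p under 0.05 for that difference. It was Cox7a1, with effects of -1.40 ad libitum and -0.77 on the reversed schedule, a difference of 0.63 ± 0.30 (edgeR, unadjusted p = 0.0407 and adjusted p = 0.677).

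The size of the change varied with transcript length. Across members, the log2 difference and length had a Spearman rho of 0.52 ad libitum (77 genes) and 0.59 on the reversed schedule (79 genes), against 0.02 and 0.06 over all genes tested; genes are not independent replicates and share each library. Of 25 members with at least 1000 bases, 18 rose ad libitum and 16 on the reversed schedule. Of the shorter members tested, 21 of 52 and 11 of 54 rose. Among all genes tested, of any length, 13.7% rose ad libitum and 12.7% on the reversed schedule. The members are short, with a median of 676 bases against 2117 over all genes, and all 4 genes of complex II are at least 1063 bases long. The slope of a library's expression on transcript length differed between libraries. With that slope as a covariate, 56 of 77 members were called ad libitum (55 rose and 1 fell), where 30.1% of all genes were called in either direction. On the reversed schedule 57 of 79 members were called (54 rose and 3 fell), where 36.2% of all genes were. In that fit 34 of 52 shorter members were called ad libitum, of which 33 rose. On the reversed schedule 34 of 54 were called, of which 31 rose. Ndufa4 and Atp5d, which did not pass without the covariate, were called with it in both schedules. Cox8a and Sdhc were likewise called with it on the reversed schedule. Ndufa3, Uqcrq, Uqcr10, Atp5e and Atp5l were still not called in either schedule.

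**Figure D2:**
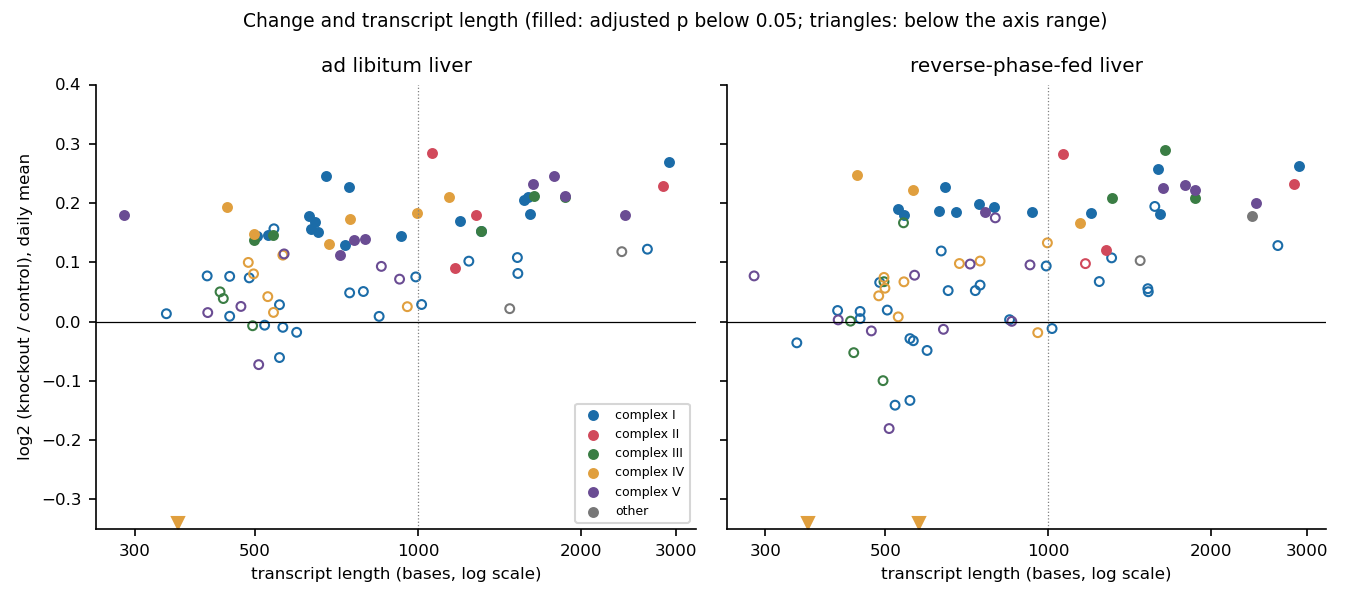
Log2 difference of the daily mean between knockout and control against transcript length (log scale) for each tested member, in ad libitum (left) and reverse-phase-fed (right) liver; filled points passed an adjusted p of 0.05 and the dotted line marks 1000 bases. Members to the right of the line lie between 0.02 and 0.28 ad libitum and between -0.01 and 0.29 on the reversed schedule, while shorter members spread more widely.

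The difference between genotypes was uneven through the day. Ad libitum, the median log2 ratio of knockout to control over the tested members was 0.26 at ZT 1, where 75 of 77 members were higher in the knockout mean, and 0.19 at ZT 13, where 75 were. It was 0.02 at ZT 7 and -0.01 at ZT 16, where 42 and 36 were higher. Over all genes tested the median was -0.01 at ZT 1 and 0.02 at ZT 13, with 47.7% and 52.8% higher in the knockout mean. The ZT 16 controls hold the library that stands apart in its length slope. Without the libraries that stand apart, 47 members rose and 1 fell over the day. On the reversed schedule the median was 0.25 at ZT 1 and 0.26 at ZT 16, with 75 and 74 of 79 higher, and -0.06 at ZT 4 and -0.05 at ZT 19, with 31 higher at each. All genes had medians of 0.001 and -0.002 at ZT 1 and ZT 16, and 48.8% and 49.4% were higher at ZT 4 and ZT 19. At ZT 1 the mean length slope was 0.05 in controls and -0.02 in knockouts ad libitum, and 0.09 and 0.02 on the reversed schedule, and its part in these medians was not tested. Differences between times were not tested, and 0 members differed in their rhythm between genotypes in either schedule, where 3.31% of all genes did ad libitum and 1.48% on the reversed schedule. With the length slope as a covariate, Atp5sl, Ndufs1 and Sdhd differed in rhythm on the reversed schedule (edgeR adjusted p = 0.0179, 0.0236 and 0.0298). They were 3 of 79 members, near the 3.38% of all genes that differed in that fit.

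Markers of other liver cells moved with the genotype as well. Of 12 endothelial markers, 10 rose ad libitum and 6 on the reversed schedule, and of 10 stellate cell markers 10 and 8 rose. The summed endothelial markers ranged from 124 to 282 normalised CPM in ad libitum controls and from 145 to 284 in knockouts, and the stellate markers from 197 to 453 and from 277 to 576. Of 12 Kupffer cell markers 0 rose, and of 13 hepatocyte markers 6 rose and 1 fell ad libitum and 4 rose and 1 fell on the reversed schedule. The summed hepatocyte markers were lower in knockouts, with medians of 150079 in controls and 134015 in knockouts ad libitum. On the reversed schedule they were 133304 and 119879. Of all genes tested 13.7% rose ad libitum and 12.7% on the reversed schedule. No marker of these 4 lists was at 0. Their part in the members' change was not tested. In whole tissue, fewer cells of a type and less RNA per cell cannot be told apart.

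Genes beside the members in the pathway moved in part with them. Cyc1, the cytochrome c1 subunit of complex III, rose by 0.20 ± 0.03 ad libitum and 0.22 ± 0.05 on the reversed schedule, while Atpif1, the inhibitor of ATP synthase, fell by 0.28 ± 0.07 and by 0.38 ± 0.08. Cox4i1 differed by 0.09 ± 0.05 and 0.08 ± 0.07, Usmg5 by 0.09 ± 0.05 and 0.06 ± 0.06 and 2010107E04Rik by 0.04 ± 0.05 and -0.03 ± 0.06, without passing the test, and Cox4i2 did not pass the filter. Of 15 tested electron carrier genes 5 rose ad libitum, with Etfa and Etfdh of fatty acid oxidation at 0.21 ± 0.03 and 0.20 ± 0.03, and 5 rose and 1 fell on the reversed schedule. Of 14 genes of the tricarboxylic acid cycle, which supplies NADH and succinate, 9 rose and 2 fell ad libitum and 7 rose and 2 fell on the reversed schedule. Idh3b rose by 0.26 ± 0.03 and 0.37 ± 0.04, and Idh2 fell by 0.29 ± 0.05 and by 0.37 ± 0.06. Among all genes tested 13.7% rose and 13.5% fell ad libitum, and 12.7% rose and 14.2% fell on the reversed schedule.

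Factors that build the complexes were counted apart. Of 13 complex I assembly factors, 3 rose ad libitum and 5 on the reversed schedule, led by Nubpl, which delivers iron-sulfur clusters, at 0.41 ± 0.06 and 0.37 ± 0.06. Of 10 factors for complexes II and III, 0 rose and 1 fell ad libitum and 3 rose and 2 fell on the reversed schedule, Sdhaf1 falling by 0.19 ± 0.06 and by 0.19 ± 0.07. Of 19 factors for complex IV, 2 rose ad libitum and 3 rose and 2 fell on the reversed schedule, with Cox11 at 0.26 ± 0.06 and 0.36 ± 0.04. Of 3 factors for complex V, 1 rose ad libitum and 0 on the reversed schedule. Of 77 mitochondrial ribosomal protein genes, 6 rose and 2 fell ad libitum and 6 rose and 6 fell on the reversed schedule. Over all genes tested 13.7% rose and 13.5% fell ad libitum, and 12.7% rose and 14.2% fell on the reversed schedule. These lists were not compared with the members or with all genes by a test.

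Among 18 regulators of respiratory gene transcription, Ppard rose by 1.62 ± 0.13 ad libitum and 1.85 ± 0.12 on the reversed schedule, and Esrrg, an oestrogen-related receptor, fell by 1.04 ± 0.18 and by 1.25 ± 0.17. Ppara fell by 0.39 ± 0.09 and by 0.39 ± 0.08. Ppargc1a, the coactivator of mitochondrial genes, differed by -0.16 ± 0.11 ad libitum without passing the test and fell by 0.56 ± 0.12 on the reversed schedule, where Ppargc1b rose by 0.65 ± 0.14. In all 1 regulator rose and 4 of 17 tested fell ad libitum, and 4 rose and 4 of 18 fell on the reversed schedule. The shares over all genes were 13.7% rising and 13.5% falling ad libitum, and 12.7% and 14.2% on the reversed schedule.

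Daily rhythms of the members in ad libitum control liver were few. A fitted 24-h rhythm passed the test for 15 of 77 members, where 48.1% of all genes tested were rhythmic, and for 5 in knockout liver, where 44.1% were. Their fitted peak-to-trough range in controls had a median of 1.20-fold. Cox7a2l peaked at ZT 8.81 with a range of 1.43-fold in controls (edgeR adjusted p = 1.26e-06) and at ZT 9.91 with 1.28-fold in knockouts. Its mean was 90.5 normalised CPM in controls at ZT 4 and 66.0 at ZT 19. Ndufv2, a core subunit of complex I, had a range of 1.27-fold with its peak at ZT 15.2, Ndufa10 1.19-fold at ZT 14.5, Uqcrc1 1.20-fold at ZT 12.7, Uqcrfs1 1.18-fold at ZT 14.7, Cox5a 1.21-fold at ZT 14.6, Atp5b 1.12-fold at ZT 15.7 and Atp5a1 1.13-fold at ZT 13.9. Apart from Atp5s, Atp5sl and Cox7a2l, the peaks of the rhythmic members lay between ZT 11.9 and ZT 15.9, around the start of the dark phase. Without the libraries that stand apart Uqcrfs1 and Cox5a no longer passed the test (edgeR adjusted p = 0.0812 and 0.0984).

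More members passed the rhythm test on the reversed schedule. They were 39 of 79 in controls, where 41.2% of all genes were rhythmic, and 43 in knockouts, where 36.8% were, with 30 in both. Peaks in controls had a median of ZT 12.7, and in knockouts of ZT 13.7. Of the 39, 31 were under 1000 bases. Atp5k, a small membrane subunit of complex V, had 78.8, 87.4 and 104 normalised CPM in the 3 controls at ZT 1 and 196, 193 and 141 at ZT 13. Those groups did not overlap, and the fitted range was 1.75-fold with the peak at ZT 12.04 (edgeR adjusted p = 0.000648). Ndufa3 had a range of 1.56-fold with the peak at ZT 13.04, Ndufv3 1.56-fold at ZT 13.3, Uqcrb 1.60-fold at ZT 12.3, Uqcr10 1.45-fold at ZT 11.7, Atp5e 1.55-fold at ZT 13.3, Cox6c 1.37-fold at ZT 13.04 and Sdhc 1.29-fold at ZT 12.5. Ndufa4l2 peaked later, at ZT 17.0, with 1.98-fold.

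The length slope of the libraries also varied with time on the reversed schedule. Its control mean was 0.09 at ZT 1, 0.06 at ZT 4, -0.08 at ZT 7 and -0.07 at ZT 13, with an SD between the 3 libraries of up to 0.14. With the slope as a covariate, 18 members were rhythmic in controls and 33 in knockouts on the reversed schedule, where 40.6% and 41.2% of all genes were. Ad libitum the same fit gave 34 in controls and 31 in knockouts, where 48.5% and 48.4% were. The covariate thus gave more rhythmic members ad libitum and fewer on the reversed schedule, where Sdhc and Cox6c no longer passed the test (edgeR adjusted p = 0.0765 and 0.29). Leaving out 1 library moved the count in controls between 26 and 53 on the reversed schedule, the lowest without control ZT 13 number 2 and the highest without control ZT 10 number 2. Ad libitum it moved between 9, without control ZT 1 number 1, and 23, without control ZT 4 number 3.

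**Figure D3:**
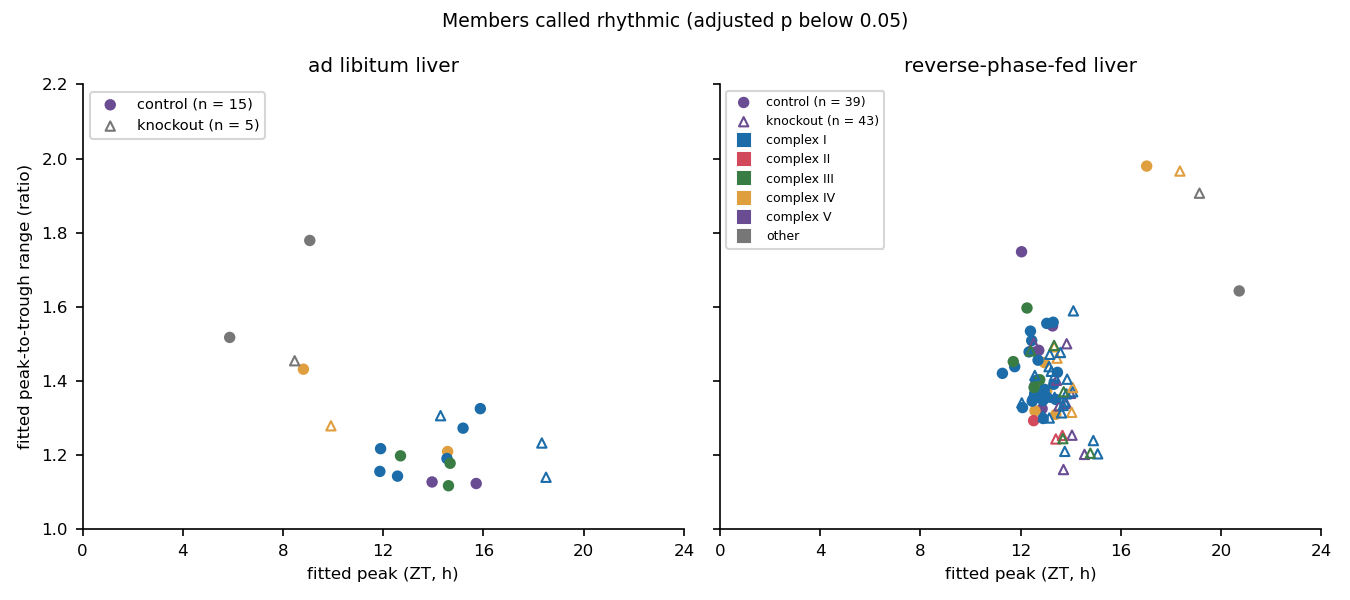
Fitted peak time (ZT, hours) against fitted peak-to-trough range (ratio) of the members called rhythmic, in ad libitum (left) and reverse-phase-fed (right) liver; filled circles are controls and open triangles knockouts, coloured by complex. On the reversed schedule the control peaks lie between ZT 11.3 and ZT 13.5, apart from Ndufa4l2 at ZT 17.0 and Atp5sl at ZT 20.7.

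Atp5sl had the smallest p among members for a rhythm that differed between the schedules. Its control libraries had 46.5, 50.8 and 50.9 normalised CPM at ZT 10 and 26.0, 28.5 and 28.8 at ZT 19 ad libitum. The reversed-schedule controls had 31.4, 25.3 and 28.2 at ZT 10 and 42.4, 44.6 and 50.04 at ZT 19. The groups at those times did not overlap in either schedule, and their order was opposite. The fitted peak was at ZT 9.07 with a range of 1.78-fold ad libitum and at ZT 20.7 with 1.64-fold on the reversed schedule (edgeR adjusted p = 4.18e-08 and 6.6e-08). In knockouts the peaks were at ZT 8.47 and ZT 19.1 with 1.45-fold and 1.91-fold. Its protein, Dmac2, is known from the assembly of the membrane arm of complex I. In the joint fit the control rhythm of Atp5sl differed between schedules with an edgeR adjusted p of 5.26e-15.

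Altogether the control rhythm differed between schedules for 17 of 78 members, where 53.6% of all genes tested differed. The fitted peak of Cox7a2l was at ZT 8.84 ad libitum and at ZT 16.9 on the reversed schedule (edgeR adjusted p = 1.72e-05). Its reversed-schedule curve did not pass its own rhythm test. The fitted peak of Ndufa4l2 was at ZT 6.93 ad libitum, where its curve did not pass, and at ZT 16.9 on the reversed schedule (edgeR adjusted p = 0.00323). Atp5k differed mainly in range, 1.08-fold ad libitum and 1.81-fold on the reversed schedule, as did Ndufv3 with 1.12-fold and 1.61-fold, the first of each pair being the fitted range of a curve that did not pass its own test. Atp5sl, Ndufa5 and Ndufv2 were the members that were rhythmic in controls of both schedules. The 2 schedules were deposited as separate tables of different depth, so differences other than feeding cannot be told apart. With the length slope as a covariate 47 members differed, where 56.1% of all genes did, so the gap between members and all genes was not seen in that fit.

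**Figure D4:**
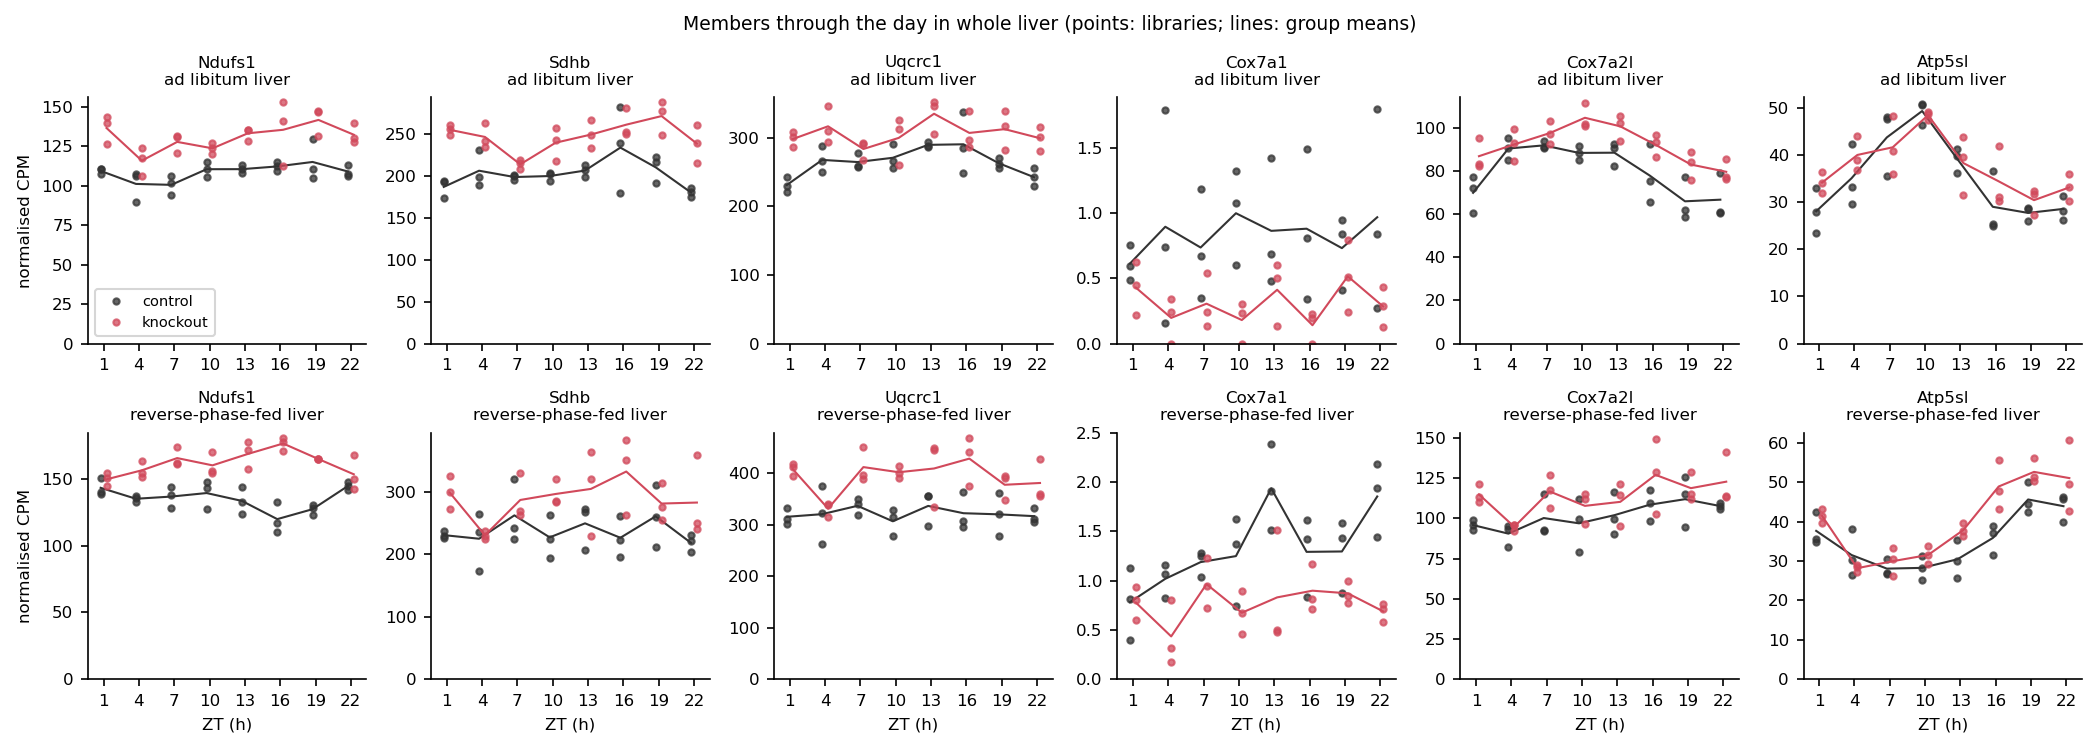
Normalised CPM of 6 members against ZT in ad libitum (top) and reverse-phase-fed (bottom) liver; each point is 1 library, lines join the means of 3 libraries, dark grey is control and red is knockout. Ndufs1, Sdhb and Uqcrc1 run higher in knockouts, Cox7a1 runs lower at under 3 CPM, and Atp5sl peaks near ZT 10 ad libitum and near ZT 19 to 22 on the reversed schedule.

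In endothelial cells the members showed no called difference between genotypes in their daily mean. Of 73 members tested 0 passed the test (limma, adjusted p below 0.05), where 0.0319% of all genes did. An unadjusted p under 0.05 was reached by 5 members and by 676 of all 12523 genes tested. The median difference was -0.07 on the log2(value + 1) scale, against -0.006 over all genes tested. Of the 73 members 10 were above 0, as were 5977 of 12523 genes. Sdhb had 99.5, 132 and 177 in controls and 102, 124 and 146 in knockouts in units of quantile-normalised signal. In Kupffer cells 0 of 74 members passed, where 0.0244% of all genes did. There 2 members had an unadjusted p under 0.05, as did 488 of all 12270 genes tested. The median there was -0.03, against 0.0002 over all genes, and 19 members were above 0, as were 6146 of 12270 genes. Whether the members as a set lie below 0 was not tested in either cell type. Quantile normalisation gives every library one distribution, which hides any shift common to most genes. On simulated data the same test recovered 78.3% of 1.5-fold changes in endothelial and 73.7% in Kupffer cells. Of the smallest changes simulated, which are larger than the median member differences in liver, it recovered 17.7% and 29.2%. Recovery of changes as small as those medians was not simulated. Whether the liver and isolated cells differ was not tested.

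Rhythms of the members in isolated cells were few. In endothelial cells 4 of 73 members were rhythmic in controls, where 6.13% of all genes were, and 11 in knockouts, where 13.2% were. The 4 were Atp5sl with a range of 2.40-fold and a peak at ZT 8.22, Ndufv1 with 1.58-fold at ZT 7.67, Atp5s with 2.26-fold at ZT 18.99 and Atp5a1 with 1.26-fold at ZT 9.60 (limma adjusted p = 0.0142, 0.0438, 0.045 and 0.0453). With the length slope as a covariate none of these 4 passed (limma adjusted p = 0.058, 0.102, 0.0679 and 0.143). The rhythms of Ndufa8 and Ndufv1 differed between genotypes, where 2.04% of all genes did (limma adjusted p = 0.0357 and 0.0495). Ndufa8, an accessory subunit of complex I, had 102, 89.2 and 110 in controls and 55.8, 62.6 and 65.6 in knockouts at ZT 10, and 93.3, 70.8 and 83.1 against 117, 103 and 83.2 at ZT 16. Ndufv1 had 170, 156 and 183 in controls and 110, 149 and 122 in knockouts at ZT 10, and 131, 109 and 141 against 200, 171 and 141 at ZT 16. Every knockout library was below every control at ZT 4 and ZT 10 for both genes, while at ZT 16 the genotypes overlapped. Neither difference passed without the endothelial libraries that stand apart (limma adjusted p = 0.0514 and 0.0933), nor with the length slope as a covariate (limma adjusted p = 0.107 and 0.111). The summed hepatocyte markers ranged from 11240 to 57358 in endothelial controls and from 8315 to 122376 in knockouts, and their part in these members' values was not tested. In Kupffer cells 0 of 74 members were rhythmic in controls, where 1.96% of all genes were, and 0 differed in rhythm between genotypes, as did 0 of all genes.

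**Figure D5:**
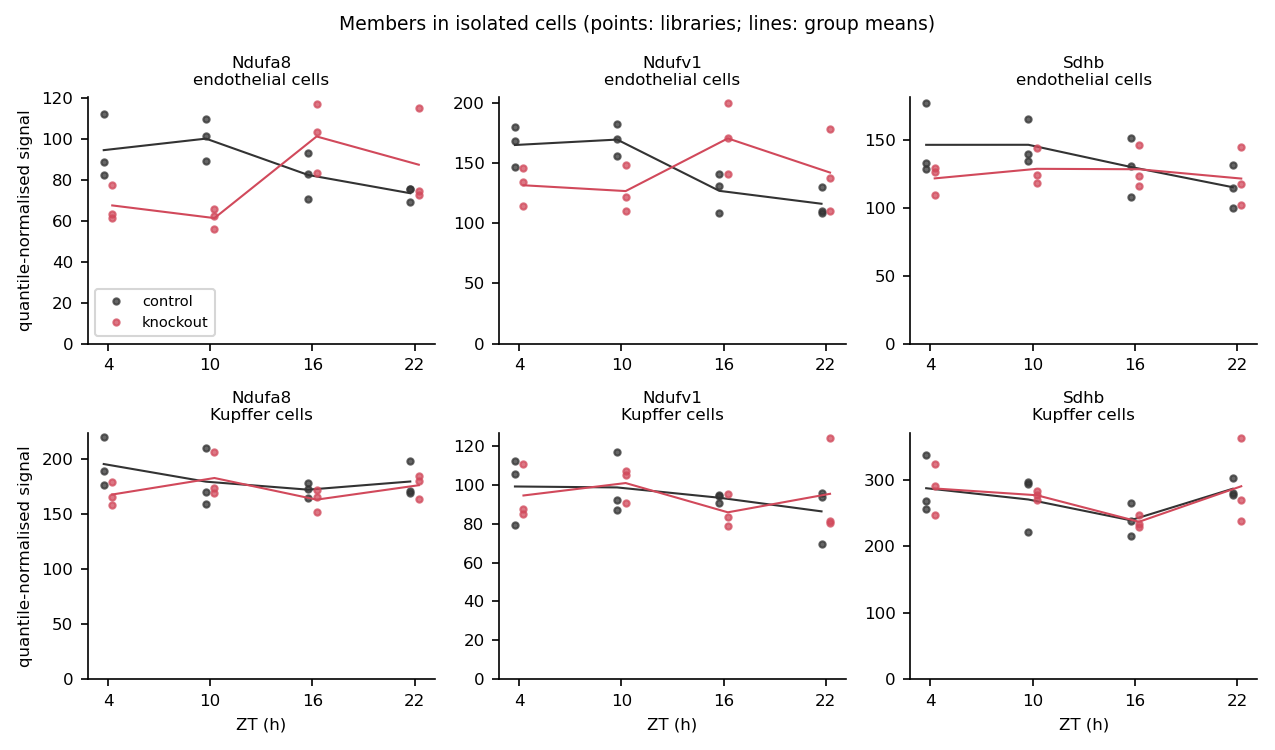
Quantile-normalised signal of Ndufa8, Ndufv1 and Sdhb against ZT in endothelial cells (top) and Kupffer cells (bottom); each point is 1 library, lines join the means of 3 libraries, dark grey is control and red is knockout. In endothelial cells the control and knockout lines of Ndufa8 and Ndufv1 cross between ZT 10 and ZT 16, and in Kupffer cells the libraries of both genotypes overlap.

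Levels per length in the isolated cells were set beside those of control liver. Atp5b led in endothelial cells with 699 signal units per kilobase, as it did in ad libitum liver. Cox6b1 led in Kupffer cells with 799, and Uqcrq led in liver on the reversed schedule with 874 normalised CPM per kilobase. Ndufa3 was the highest of complex I in both cell types with 322 and 451, whereas in liver it was Ndufb9 in both schedules. The lowest tested member of complex I was Ndufa11 in both, with 12.1 and 16.1. These orders come from tables that were normalised separately and are given side by side. The ranks of Ndufa11 and Uqcrq also depend on their listed lengths of 2655 and 495 bases. The GENCODE transcript of Ndufa11 held 496 of the windows counted for control liver above and is thus shorter than listed. That of Uqcrq held 1472 and is thus longer.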

How the data were processed

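Libraries numbered 144, in 4 tables. Trizol extraction, an RNeasy column and TruSeq library preparation are recorded per the labels' protocols, and STAR, HOMER and mm9 per the submitters' processing notes, without versions. In the liver tables the authors deposited expected counts per transcript, in steps of 0.5, and these were rounded. For endothelial and Kupffer cells the authors deposited a signal whose sorted values are identical in all 24 columns of a table, that is, quantile-normalised, with unknown depth.

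The transcript of largest mean stood for each symbol. Liver was analysed with edgeR 4.0.16 (TMM, filterByExpr by group, quasi-likelihood with robust settings). For isolated cells limma 3.58.1 (robust, with trend) was run on log2(value + 1), keeping genes that reached 10 in 3 libraries. Each genotype had its own mean and its own 24-h cosine curve. The genotype difference compares those means, a rhythm test asks whether both curve terms are 0, and the range is the curve's peak over its trough. Genes with a Benjamini-Hochberg adjusted p below 0.05, over all genes tested, count as called. SE was obtained as the effect divided by the root of its F. A further fit held both liver schedules. The length slope is the slope, in one library, of log2 expression (relative to the gene's mean) on log2 transcript length.

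Members and gene lists were chosen with earlier results of these data known. The members named are, per complex, up to 3 with the largest called change and every fall, up to 2 with the smallest rhythm p in liver controls, up to 5 for each difference in rhythm, feeding interaction and isolated cell test, the tissue-restricted forms, and the highest and lowest per length; a few others named beside them were chosen after their values were seen. Alternatives were DESeq2 1.42.0, its size factors in edgeR, other filters, pseudocounts of 0.5 and 4, a block for the replicate number, times as separate levels, a minimum fold of 1.1, the longest transcript, the length slope and leaving out libraries; fits without libraries that stand apart were added after seeing the data. Those are beyond 3 median absolute deviations in length slope or in spread around the group, or above 5% Rn45s in liver. On simulated data the liver tests recovered 89.7% of 1.5-fold changes ad libitum and 82.6% on the reversed schedule. Of 1.15-fold changes, the smallest simulated, they recovered 33.3% and 31.9%. The median member differences, 0.12 and 0.10 on the log2 scale, are smaller than that. A smaller share of genes changed in the simulation than was called in liver. Promoters are from RefSeq GRCm38.p6, and gene coordinates of the tables are on mm9.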

Additional observations from a re-analysis of the deposited data

Results flagged for a closer look

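The tests of a difference in rhythm that passed are given here for the named members. In endothelial cells the rhythm of Ndufa8 differed between genotypes with a limma adjusted p of 0.0357, and that of Ndufv1 with 0.0495. The control means of both were highest at ZT 10 and the knockout means at ZT 16. Neither difference passed without the libraries that stand apart or with the length slope as a covariate. In control liver the rhythm differed between feeding schedules with an edgeR adjusted p of 5.26e-15 for Atp5sl and 1.72e-05 for Cox7a2l. Their fitted peaks lay 11.4 h and 8.09 h apart. The rhythm also differed for Atp5k with 0.00148, for Ndufa4l2 with 0.00323 and for Ndufv3 with 0.00510. The reversed-schedule curve of Cox7a2l and the ad libitum curves of Atp5k, Ndufa4l2 and Ndufv3 did not pass their own rhythm tests. Ndufa4l2 rested on 347.5 counts in 24 ad libitum control libraries.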

How the results depend on the processing

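The count of rising members was 39 ad libitum and 27 on the reversed schedule, and with DESeq2 it was 39 and 27. With the length slope as a covariate 54 members rose on the reversed schedule. The falls ad libitum numbered 2 with no filter on low counts and 0 with a mean of at least 1 CPM, and 1 on the reversed schedule with that mean. The slope covariate gave 34 rhythmic members in ad libitum controls, 31 in knockouts, 18 in reversed-schedule controls, 3 differing in rhythm between genotypes there and 47 differing between schedules. DESeq2 gave 1 differing in rhythm on the reversed schedule, and the longest transcript gave 3 rhythmic members in ad libitum knockouts. In endothelial cells the rhythmic members in controls numbered 1 with no filter on low values, 2 with the replicate block and 1 with the slope. The differences in rhythm there numbered 0 with no filter, 1 with the replicate block, 0 with the slope and 0 without the libraries that stand apart. The cause was not tested for any of these.

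Leaving out 1 library gave 34 to 49 rising members ad libitum and 21 to 31 on the reversed schedule, and leaving out a replicate number gave 21 to 32 and 15 to 26. The lowest of these were without number 3 ad libitum and without number 2 on the reversed schedule. The falls ranged from 1 to 1 ad libitum and from 1 to 3 on the reversed schedule. Rhythmic members without 1 library numbered 9 to 23 in ad libitum controls, 3 to 8 in ad libitum knockouts, 26 to 53 in reversed-schedule controls and 22 to 59 in reversed-schedule knockouts, the last being lowest without knockout ZT 4 number 1 and highest without knockout ZT 13 number 2. Without a replicate number they numbered 4 to 14, 3 to 5, 10 to 33 and 1 to 54, the last without numbers 3 and 2. Rhythm differences between genotypes ranged from 0 to 0 ad libitum and from 0 to 1 on the reversed schedule, and those between schedules from 5 to 15. In endothelial cells leaving out any replicate number gave 0 rhythmic members in controls and 0 differences.

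Same-numbered control and knockout libraries deviated together with a correlation over 0.1 in 3 of 24 pairs ad libitum, 6 of 24 on the reversed schedule, 1 of 12 in endothelial and 4 of 12 in Kupffer cells, so the numbers were not taken to pair the libraries. An exception is ZT 4 in Kupffer cells, where numbers 2 and 3 of both genotypes stand apart in length slope. With the replicate block 39 and 28 members rose in the liver tables. Of the named results, 19, 17 and 16 no longer passed the test without replicate number 1, 2 or 3, 8 with the length slope, 5 with no filter on low values, 4 without the libraries that stand apart and 3 with the replicate block. None changed direction under the alternatives run.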
